A study of Mus musculus with 21 samples.

Results

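The core splicing factors were taken as the genes whose symbol begins with Snrp, with Sf3a or Sf3b and a digit, or with Lsm, Srsf or Prpf and a digit, and that had a mean of at least 50 counts over the 6 RNA-seq libraries. Of 24421 gene symbols in the count table, 58 carried such a name and 55 reached the minimum. All 55 also passed the filter on low counts, which left 12786 genes in the test. Names and the minimum of counts chose the genes, and this rule was set with earlier results of these data known. The count table held 10 Snrp genes, 13 Lsm genes, 9 Sf3a and Sf3b genes, 13 Prpf genes and 10 Srsf genes above the minimum.

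The study asked which genes acquire DNA damage when B cell precursors are transformed by a leukemic oncogene, and measured poly(A) RNA in the same kind of cells. Bone marrow of 53BP1-/- C57BL/6 mice was the source of the primary B cell precursors, which were cultured with IL-7 at 10 ng/ml, the cytokine that keeps such precursors growing. They were transduced with the empty retroviral vector MIGR1 (EV), with MIGR1 encoding the p210 form of human BCR-ABL1, the fusion kinase of Philadelphia chromosome-positive leukemia, or with MIGR1 encoding mouse C-MYC, a transcription factor. RNA was extracted at days 7 to 9 after transduction, with 2 libraries for each of the 3 conditions. All 6 libraries come from mice labelled 53BP1-/-, so no comparison here is made in wild-type cells. The methods describe the 2 libraries of a condition as duplicate experiments. The age of the mice and whether the duplicates came from separate mice are not given in the sources used here, and the p-values measure the spread between these libraries. The vector expresses the oncogene from a viral promoter, so the level of C-MYC is not that of the cell's own gene.

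Counts assigned to genes ranged from 20687092 to 24095955 per library. Values per library are given as counts per 1000000 (CPM) after TMM scaling, and differences as log2 fold changes from edgeR's quasi-likelihood test with their standard error (SE) and a p-value adjusted over all 12786 genes by Benjamini-Hochberg. A gene was called at an adjusted p below 0.05. Myc itself, which the label of the C-MYC libraries concerns, had 181 and 137 CPM with EV, 343 and 348 with BCR-ABL1 and 1743 and 1233 with C-MYC, and it was called higher in C-MYC than in EV (log2 fold change 3.23 ± 0.20 (SE), adjusted p = 0.000175). Reads of the vector's C-MYC and of the cell's own gene are not separated in this count. Trp53bp1, which encodes 53BP1, still had 15.7 to 30.2 CPM, and a count over the whole gene does not show whether its protein is made. The markers of B cell precursors (Cd79a, Pax5, Ebf1 and others, 10 genes) were detected in every library, with a summed level of 5312 and 5985 CPM with EV, 5496 and 6166 with BCR-ABL1 and 3083 and 3720 with C-MYC.

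Splicing removes introns from precursor mRNA. Small nuclear RNAs bound by proteins, the snRNPs, recognise the ends of the intron and its branch point and assemble stepwise into the spliceosome. The Sm proteins encoded by Snrp genes form a ring on most spliceosomal RNAs, the Lsm2 to Lsm8 proteins form the related ring on U6, and the SF3A and SF3B complexes belong to the U2 snRNP and bind at the branch point. Prpf genes encode proteins of the U4/U6.U5 tri-snRNP, of the Prp19 complex and of other assembly steps. SR proteins, encoded by Srsf genes, bind exons and recruit the snRNPs, and with them affect which exons are used. Genes of RNA processing are among the well-known targets of MYC in lymphoid cells.

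The summed level of the core splicing factors was highest in C-MYC, lowest in EV and between them in BCR-ABL1, with the largest ratio in the Snrp genes. Together they took 1.04% and 1.13% of all counts with EV, 1.17% and 1.20% with BCR-ABL1 and 1.31% and 1.33% with C-MYC. The libraries of the 3 conditions did not overlap in this share. The summed level was 10420 ± 459 CPM with EV, 11922 ± 129 CPM with BCR-ABL1 and 13739 ± 230 CPM with C-MYC (SD, n = 2), which is 1.14 times the EV mean in BCR-ABL1 and 1.32 times in C-MYC. By family, the summed level in C-MYC was 1.57 times that of EV for Snrp genes, and between 1.24 times (Sf3a and Sf3b) and 1.32 times (Prpf) for the other families. In BCR-ABL1 the same ratios were 1.28 for Snrp, 1.20 for Lsm, 1.14 for Prpf, 1.12 for Sf3a and Sf3b, and 1.10 for Srsf. All of these values are relative to the library, so that more RNA of these genes per cell and more cells that express them cannot be told apart, nor can a change in the total RNA of a cell be seen.

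**Figure D1:**
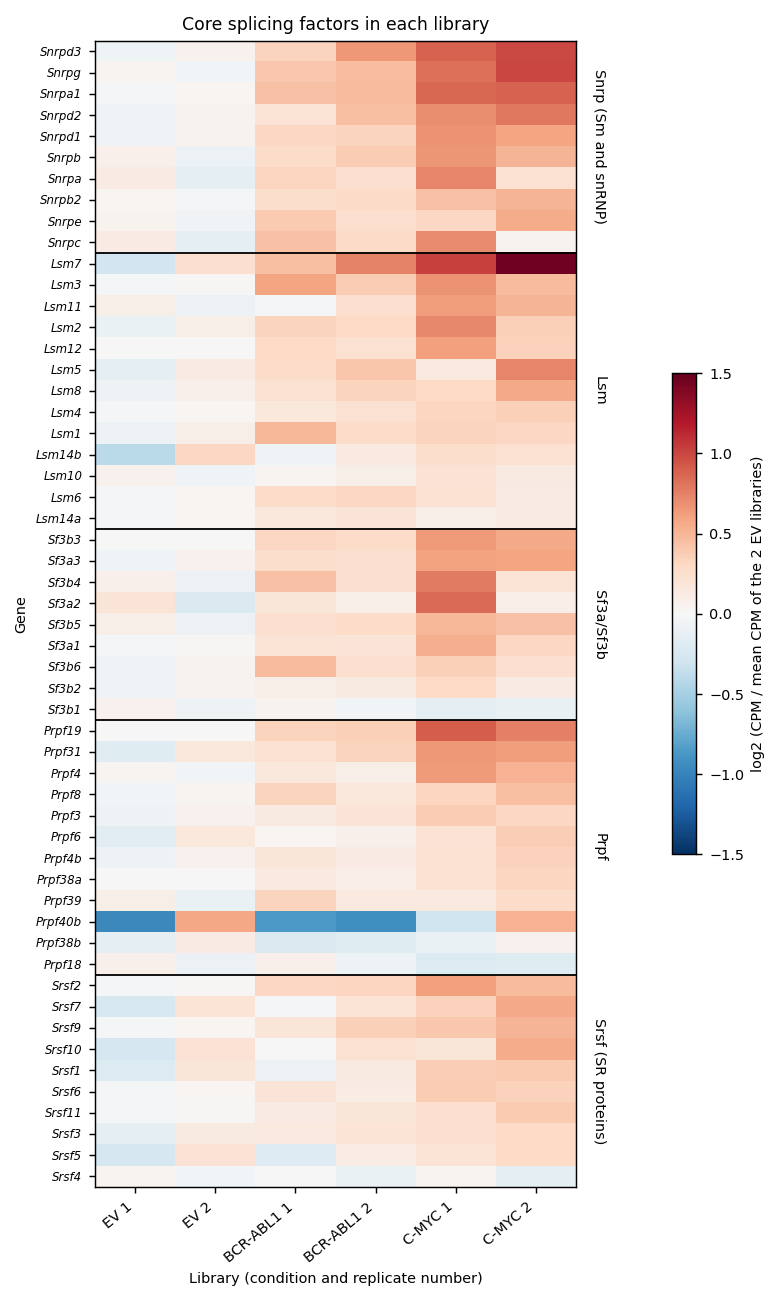
Heat map of 54 of the 55 core splicing factors (rows, by family) in the 6 libraries (columns, condition and replicate number). Color gives log2 of the library's CPM over the mean CPM of the 2 EV libraries, from blue (lower) to red (higher). Most rows are redder in C-MYC than in BCR-ABL1, with Snrpd3, Snrpg, Snrpa1, Lsm7 and Prpf19 among the darkest, while Sf3b1, Prpf18 and Srsf4 stay pale in every column.

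Between C-MYC and EV, 30 of the 55 genes were called higher and 0 lower. Over all genes tested, 18.6% were called higher and 24.5% lower. At an unadjusted p below 0.05 in the same edgeR test, 37 were higher and 0 lower. Shares of all genes at an unadjusted p are not given here for any comparison. DESeq2 called 38 higher and 0 lower, beside 15.3% of all genes called higher by DESeq2. The median log2 fold change was 0.43 for the core splicing factors and -0.08 for all genes tested, and single values ran from -0.19 for Prpf18 to 1.26 for Lsm7. In 45 of the 55 genes both C-MYC libraries lay above both EV libraries in CPM, against 31.5% of all genes tested. The number of calls changed when each of the 6 libraries was left out in turn. Without any 1 BCR-ABL1 or C-MYC library, fewer core splicing factors and a smaller share of all genes tested were called. The median log2 fold change ran from 0.35 without EV replicate 1 to 0.45 without EV replicate 2. Calls of 13 genes (Snrpd3, Snrpg, Snrpa1, Snrpd2, Snrpd1, Snrpb, Lsm7, Sf3b3, Sf3a3, Prpf19, Prpf31, Prpf4 and Srsf2) were kept in each of these 6 fits.

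Markers of other cell types were higher in the EV libraries than in the oncogene libraries. The 9 myeloid markers found in the table summed to 1167 and 1284 CPM with EV, to 142 and 162 with BCR-ABL1 and to 199.9 and 349 with C-MYC, and all 9 were called lower in C-MYC than in EV and in BCR-ABL1 than in EV. The 8 T and NK cell markers summed to between 98.2 and 134 CPM in EV and to at most 9.43 CPM in the other libraries, and all 8 were called lower in both comparisons. The 6 stromal markers summed to 106 and 162 CPM in EV and to at most 6.02 CPM elsewhere, with 6 called lower in C-MYC and 5 in BCR-ABL1, and Cxcl12 and Pdgfrb had 0 counts in both C-MYC libraries. The 6 erythroid markers summed to at most 1.75 CPM in every library, and Hba-a1 and Hbb-bs had 0 counts. Over all genes tested, 24.5% were called lower in C-MYC than in EV and 12% in BCR-ABL1 than in EV. Of the 10 B cell precursor markers, 9 were called lower in C-MYC than in EV and 2 in BCR-ABL1 than in EV. The part of these differences in the levels of the splicing factors was not tested.

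**Figure D2:**
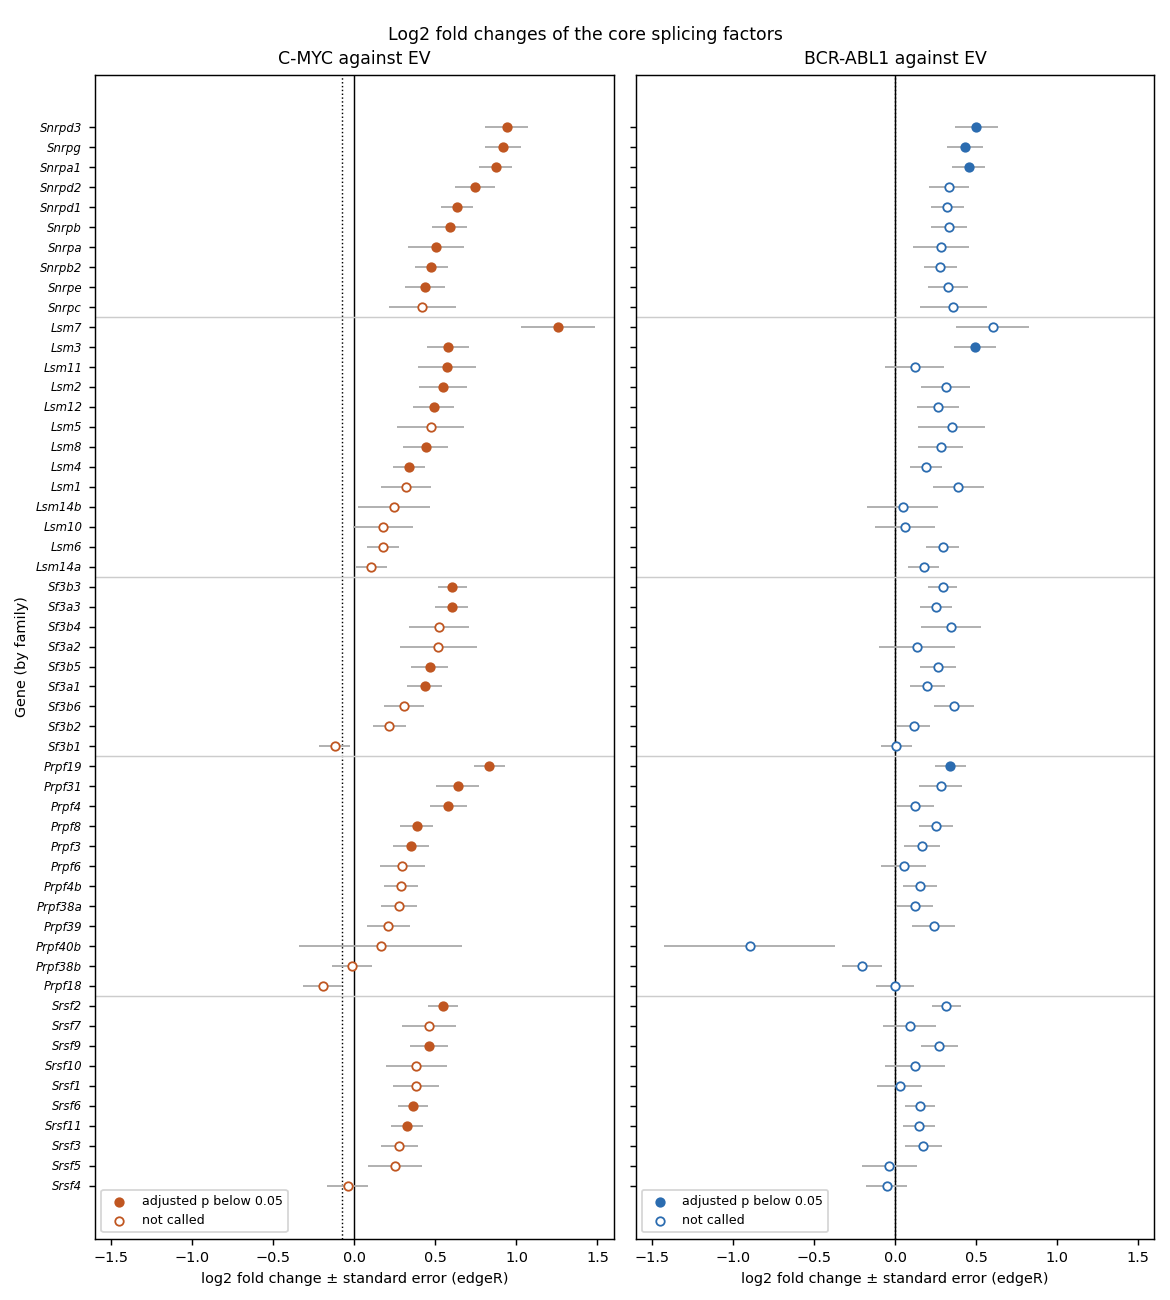
Log2 fold change of 54 of the 55 core splicing factors (rows, by family) in C-MYC against EV (left) and in BCR-ABL1 against EV (right). Points are edgeR estimates and bars their standard errors, filled points have an adjusted p below 0.05, and the dotted line is the median of all genes tested. On the left 29 points are filled and on the right 5, and every filled point lies to the right of 0. Both panels use the same 2 EV libraries.

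Of the 10 Snrp genes, 9 were called higher in C-MYC than in EV, beside 18.6% of all genes tested. The family median log2 fold change was 0.61. Snrpd3, a protein of the Sm ring (chromosome 10, 75517551 to 75537381, GRCm38), had 116 and 127 CPM with EV, 153 and 192 with BCR-ABL1 and 225 and 242 with C-MYC. Its levels increased from EV over BCR-ABL1 to C-MYC with no overlap between conditions (log2 fold change 0.94 ± 0.13 (SE), adjusted p = 0.00142 for C-MYC against EV). Snrpg, another protein of that ring (chromosome 6, 86371304 to 86379328), had 83.2 and 78.4 CPM with EV, 107 and 111 with BCR-ABL1 and 143 and 162 with C-MYC, with the same order and no overlap (log2 fold change 0.92 ± 0.11 (SE), adjusted p = 0.000788). Snrpa1, which binds the U2 snRNA, had 85.1 and 89.0 CPM with EV, 118 and 121 with BCR-ABL1 and 158 and 161 with C-MYC. Its replicates lay close together, and the adjusted p was the smallest among the core splicing factors (log2 fold change 0.87 ± 0.10 (SE), adjusted p = 0.000635).

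Snrpd2, a further Sm protein, had 93.4 and 100.3 CPM with EV, 111 and 133 with BCR-ABL1 and 157 and 167 with C-MYC (log2 fold change 0.74 ± 0.12 (SE), adjusted p = 0.00245). Snrpd1, its neighbour in the ring, had 137 and 148 CPM with EV, 177 and 179.7 with BCR-ABL1 and 227 and 214 with C-MYC (log2 fold change 0.63 ± 0.10 (SE), adjusted p = 0.00214). Snrpb, which encodes the Sm proteins B and B', had the highest level per kilobase of exon in the family, and it had 313 and 279 CPM with EV, 359 and 386 with BCR-ABL1 and 469 and 420.4 with C-MYC (log2 fold change 0.59 ± 0.11 (SE), adjusted p = 0.00416). For each of these genes both C-MYC libraries were above both EV libraries. Snrpa, Snrpb2 and Snrpe were also called, with log2 fold changes of 0.50, 0.47 and 0.44, and Snrpa and Snrpe lost the call when either BCR-ABL1 library or EV replicate 2 was left out, Snrpa also without C-MYC replicate 1, and Snrpe and Snrpb2 without C-MYC replicate 2. Snrpc, a protein of the U1 snRNP, was the exception. It had 92.0 and 77.4 CPM with EV, 114 and 103 with BCR-ABL1 and 139 and 88.1 with C-MYC, so that the lower C-MYC library fell below both BCR-ABL1 libraries and the difference from EV was within the replicate spread (log2 fold change 0.42 ± 0.21 (SE), adjusted p = 0.138). Without C-MYC replicate 2 it was called, with a log2 fold change of 0.72.

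Among Lsm genes, 7 of 13 were called higher in C-MYC than in EV, beside 18.6% of all genes tested. The family median log2 fold change was 0.44. Lsm7, of the U6 ring (chromosome 10, 80852821 to 80855209), had 19.1 and 27.5 CPM with EV, 31.8 and 39.1 with BCR-ABL1 and 47.5 and 64.0 with C-MYC. This was the largest difference among the core splicing factors (log2 fold change 1.26 ± 0.23 (SE), adjusted p = 0.00362), although replicate 2 was the higher one in each condition. Lsm3, also of the ring, had 59.6 and 61.0 CPM with EV, 91.2 and 78.7 with BCR-ABL1 and 96.3 and 83.5 with C-MYC (log2 fold change 0.58 ± 0.13 (SE), adjusted p = 0.00933). Its C-MYC and BCR-ABL1 libraries overlapped, and the call was lost without C-MYC replicate 1. Annotated exons of another gene model cover 23.4% of the exon bases of Lsm3, so that its count may hold reads of both.

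Lsm2 had 52.5 and 59.6 CPM with EV, 70.4 and 69.0 with BCR-ABL1 and 92.3 and 71.6 with C-MYC in the count table (log2 fold change 0.55 ± 0.15 (SE), adjusted p = 0.021). The deposited FPKM of Lsm2 showed no such order, with 40.5 and 63.1 FPKM with EV, 37.3 and 52.9 with BCR-ABL1 and 44.0 and 53.2 with C-MYC, and the call was also lost without EV replicate 1 or C-MYC replicate 1. Lsm12, Lsm8 and Lsm4 were called with log2 fold changes of 0.49, 0.44 and 0.34. The Lsm12 call was lost without C-MYC replicate 1, that of Lsm8 without EV replicate 1, C-MYC replicate 2 or either BCR-ABL1 library, and that of Lsm4 when any BCR-ABL1 or C-MYC library was left out. Lsm11, a subunit of the U7 snRNP that processes histone mRNA, is not a splicing factor proper and was expressed at a low level, with 12.3 and 11.0 CPM with EV, 11.4 and 13.9 with BCR-ABL1 and 18.0 and 16.6 with C-MYC (log2 fold change 0.57 ± 0.18 (SE), adjusted p = 0.0355). The Lsm11 call held in 1 of the 6 fits that each left out 1 library, the one without EV replicate 1. Lsm1, Lsm10, Lsm11, Lsm12, Lsm14a and Lsm14b carry the family name but act mainly outside splicing. Of these 6, 2 were called higher, beside 18.6% of all genes tested. Lsm14a, a protein of cytoplasmic RNA granules, had 228 and 236 CPM with EV, 258 and 266 with BCR-ABL1 and 246 and 253 with C-MYC (log2 fold change 0.11 ± 0.09 (SE), adjusted p = 0.39), the smallest difference of the family. The ring genes Lsm5 and Lsm6 were not called, with log2 fold changes of 0.47 and 0.18 and SEs of 0.21 and 0.10.

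Of the 9 genes of the SF3A and SF3B complexes, 4 were called higher in C-MYC than in EV, beside 18.6% of all genes tested. The family median log2 fold change was 0.47. Sf3b3, a scaffold subunit of SF3B (chromosome 8, 110810239 to 110846787), had 421 and 426 CPM with EV, 526 and 513 with BCR-ABL1 and 659 and 630.1 with C-MYC (log2 fold change 0.61 ± 0.09 (SE), adjusted p = 0.0016). Sf3a3 had 133 and 145 CPM with EV, 166 and 164 with BCR-ABL1 and 211 and 209.5 with C-MYC (log2 fold change 0.60 ± 0.10 (SE), adjusted p = 0.00258). In both genes the order EV, BCR-ABL1, C-MYC held in every library. For Sf3a3 the EV replicates were 0.13 apart on the log2 scale, beside 0.25 ± 0.10 (SE) between BCR-ABL1 and EV, which was not called. Sf3b5, a small SF3B subunit, had 76.7 and 68.0 CPM with EV, 86.0 and 87.8 with BCR-ABL1 and 102 and 97.9 with C-MYC (log2 fold change 0.47 ± 0.11 (SE), adjusted p = 0.013), and its call was lost without either C-MYC library. Sf3a1 had 264 and 269.8 CPM with EV, 308 and 305 with BCR-ABL1 and 389 and 332 with C-MYC (log2 fold change 0.43 ± 0.11 (SE), adjusted p = 0.0136), with C-MYC replicate 1 well above replicate 2, and without replicate 1 the call was lost.

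Sf3b1, the subunit that holds the branch point and is often mutated in blood cancers, was not called. It had 759.5 and 689 CPM with EV, 750.0 and 706 with BCR-ABL1 and 661 and 672 with C-MYC (log2 fold change -0.12 ± 0.10 (SE), adjusted p = 0.342), and both C-MYC libraries lay slightly below both EV libraries. Within the family, log2 fold changes ran from -0.12 for Sf3b1 to 0.61 for Sf3b3, and Sf3a2, Sf3b2, Sf3b4 and Sf3b6 were not called. The gaps between replicates of Sf3a2 and Sf3b4 are given with those of Snrpa and Snrpc below.

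Among Prpf genes, 6 of 13 were called higher in C-MYC than in EV, beside 18.6% of all genes tested. The family median log2 fold change was 0.30. Prpf19, the ubiquitin ligase of the Prp19 complex (chromosome 19, 10895231 to 10909559), had 268 and 271 CPM with EV, 339 and 344 with BCR-ABL1 and 505 and 456 with C-MYC. The conditions did not overlap and the BCR-ABL1 replicates were nearly equal (log2 fold change 0.83 ± 0.10 (SE), adjusted p = 0.000653). Prpf31, which bridges U4/U6 and U5, had 111 and 141 CPM with EV, 147 and 159 with BCR-ABL1 and 198 and 194 with C-MYC (log2 fold change 0.64 ± 0.13 (SE), adjusted p = 0.00653). Prpf4, of the U4/U6 snRNP, had 60.1 and 56.7 CPM with EV, 65.0 and 62.1 with BCR-ABL1 and 91.0 and 83.6 with C-MYC (log2 fold change 0.58 ± 0.12 (SE), adjusted p = 0.00556). Both genes were highest in the C-MYC libraries, and Prpf4 in BCR-ABL1 was close to EV. Prpf8, the large protein at the center of the spliceosome, had 654 and 695 CPM with EV, 851 and 755 with BCR-ABL1 and 840.4 and 919 with C-MYC (log2 fold change 0.38 ± 0.10 (SE), adjusted p = 0.0194). Its C-MYC replicate 1 was below BCR-ABL1 replicate 1, and the call was lost without EV replicate 1 or C-MYC replicate 2.

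Prpf3 was called with a log2 fold change of 0.35, and its call was lost when any BCR-ABL1 or C-MYC library or EV replicate 1 was left out. Prpf38b had 161 and 192 CPM with EV, 151 and 155 with BCR-ABL1 and 164 and 184 with C-MYC and was called in no comparison, with both BCR-ABL1 libraries the lowest. Prpf18, needed for the second catalytic step, had the lowest log2 fold change of all 55 at -0.19 ± 0.12 (adjusted p = 0.224). Prpf40b was at the low end, with 1.45 and 4.22 CPM with EV, a mean of 1.53 ± 0.0485 (SD, n = 2) with BCR-ABL1 and 2.30 and 4.09 with C-MYC, and was called in no comparison. Its EV libraries spanned the values of all the others, while both C-MYC libraries lay above both BCR-ABL1 libraries, and without either EV library it was called higher in C-MYC than in BCR-ABL1.

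Of the 10 Srsf genes, 4 were called higher in C-MYC than in EV, beside 18.6% of all genes tested. The family median log2 fold change was 0.37. Srsf2 (chromosome 11, 116849901 to 116853094), which binds exonic enhancers and is mutated in myeloid disease, had 724 and 738 CPM with EV, 909.6 and 912 with BCR-ABL1 and 1119 and 1017 with C-MYC. No conditions overlapped (log2 fold change 0.55 ± 0.09 (SE), adjusted p = 0.00272). Srsf9 had 79.8 and 83.3 CPM with EV, 92.4 and 105 with BCR-ABL1 and 108 and 116 with C-MYC (log2 fold change 0.46 ± 0.12 (SE), adjusted p = 0.0145). Srsf6 had 483 and 506 CPM with EV, 565 and 535 with BCR-ABL1 and 643 and 629 with C-MYC (log2 fold change 0.36 ± 0.09 (SE), adjusted p = 0.0144). Srsf11 had 218 and 224 CPM with EV, 240.0 and 249.6 with BCR-ABL1 and 263 and 289.9 with C-MYC (log2 fold change 0.32 ± 0.10 (SE), adjusted p = 0.0323). In these 3 genes, too, both C-MYC libraries were the highest. The Srsf6 call was lost without C-MYC replicate 1, the Srsf9 call without C-MYC replicate 2, and the Srsf11 call in each of the 6 fits except that without EV replicate 2.

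Srsf1, the best-studied SR protein and a known oncogene, had 533 and 693 CPM with EV, 575 and 675 with BCR-ABL1 and 791 and 804 with C-MYC (log2 fold change 0.38 ± 0.14 (SE), adjusted p = 0.0623). Both C-MYC libraries were the highest, but the EV replicates were 0.38 apart on the log2 scale, and the test did not call the gene. Srsf3 had 522 and 634 CPM with EV, 642 and 664 with BCR-ABL1 and 689 and 713 with C-MYC (log2 fold change 0.28 ± 0.11 (SE), adjusted p = 0.0808), again with the lowest value in EV replicate 1. Without EV replicate 2, Srsf1, Srsf3, Srsf5, Srsf7 and Srsf10 were all called, and a larger share of all genes tested was also called. Without EV replicate 1, fewer Srsf genes were called than in the fit of all 6 libraries. When 1 library was left out, log2 fold changes ran from 0.21 to 0.58 for Srsf1 and from 0.15 to 0.43 for Srsf3. Srsf4 had 49.8 and 47.0 CPM with EV, 48.3 and 45.2 with BCR-ABL1 and 50.0 and 44.1 with C-MYC, with every condition overlapping, but exons of Gm12992 on the other strand cover 67.9% of its exon bases, and how strand was handled in counting is not stated.

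**Figure D3:**
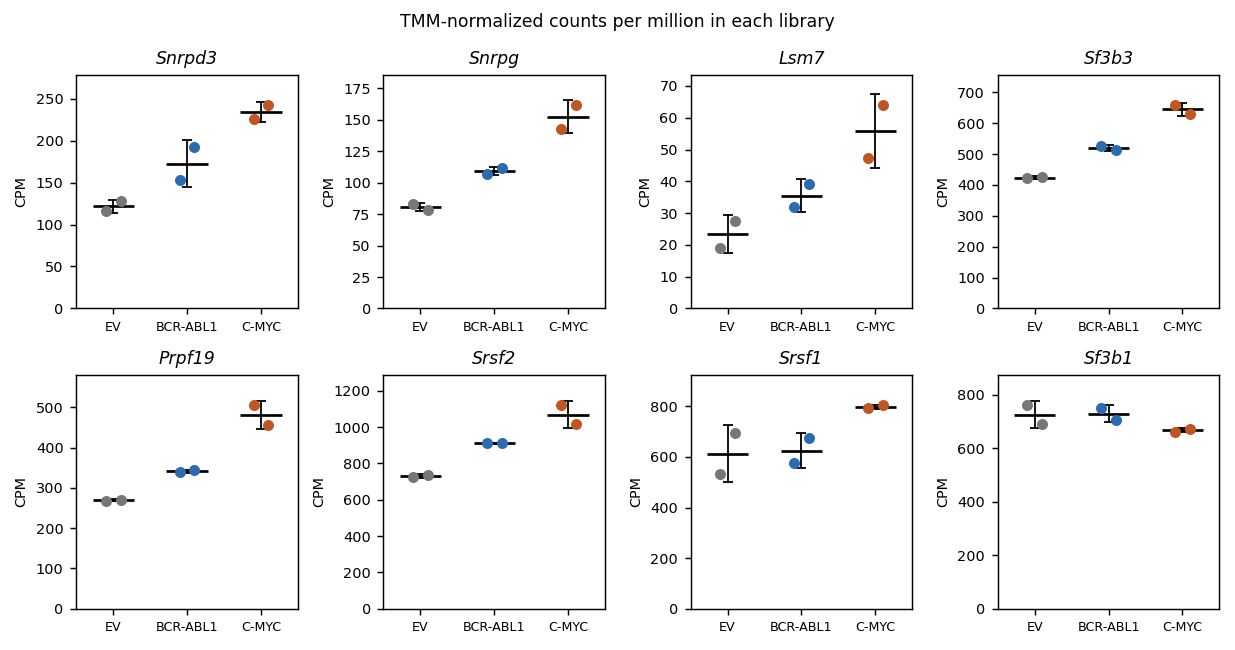
CPM of 8 core splicing factors in each library (points, replicate 1 left and replicate 2 right), with the mean (line) and SD (bars) of the 2 libraries of a condition. Snrpd3, Snrpg, Lsm7, Sf3b3, Prpf19 and Srsf2 are ordered EV, BCR-ABL1, C-MYC with no overlap. In Srsf1 the EV libraries lie at 533 and 693 CPM, and in Sf3b1 the C-MYC libraries, at 661 and 672 CPM, are the lowest.

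The replicates disagreed in a patterned way in some core splicing factors, chosen here after their values were seen. Srsf5, Srsf7 and Srsf10 were higher in replicate 2 than in replicate 1 of EV by 0.46, 0.44 and 0.46 on the log2 scale, and by 0.31, 0.23 and 0.23 in BCR-ABL1. Snrpa, Snrpc, Sf3b4 and Sf3a2 went the other way, with replicate 2 below replicate 1 in each condition, by -0.26, -0.25, -0.16 and -0.41 in EV and by -0.50, -0.65, -0.57 and -0.75 in C-MYC. These gaps in C-MYC ranged up to and beyond the differences between C-MYC and EV in the same genes, and the adjusted p was 0.048 for Snrpa, 0.138 for Snrpc, 0.0533 for Sf3b4 and 0.111 for Sf3a2. The median absolute gap between replicates over all genes was 0.25 with EV, 0.13 with BCR-ABL1 and 0.17 with C-MYC, and for the core splicing factors it was 0.13, 0.08 and 0.12.

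In BCR-ABL1 the differences from EV were smaller. Here 5 of the 55 genes were called higher and 0 lower, where 5.08% of all genes tested were called higher and 12% lower. At an unadjusted p below 0.05, edgeR gave 21 higher and 0 lower. DESeq2 called 10 higher and 0 lower, beside 5.6% of all genes called higher by DESeq2. The median log2 fold change was 0.25, beside 0.00 for all genes tested, and in 41 genes both BCR-ABL1 libraries were above both EV libraries, against 29.2% of all genes. The called genes were Snrpd3 (log2 fold change 0.50 ± 0.13 (SE), adjusted p = 0.0385), Lsm3 (log2 fold change 0.49 ± 0.13 (SE), adjusted p = 0.0373), Snrpa1 (log2 fold change 0.45 ± 0.10 (SE), adjusted p = 0.0194), Snrpg (log2 fold change 0.43 ± 0.11 (SE), adjusted p = 0.0352) and Prpf19 (log2 fold change 0.34 ± 0.10 (SE), adjusted p = 0.0474). Their levels in each library are those given above, and in all 5 the BCR-ABL1 libraries did not overlap those of EV. The calls rest on 2 libraries per condition. Without BCR-ABL1 replicate 1 or BCR-ABL1 replicate 2 none of them was kept, and the share of all genes tested that was called fell as well. The median log2 fold change of the core splicing factors was then 0.24 and 0.22. Part of the calls was also lost when any other library was left out. In those fits the median ran from 0.21 without EV replicate 1 to 0.26 without EV replicate 2 or either C-MYC library. Without EV replicate 1, Prpf40b was called lower.

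By family, all 10 Snrp genes had both BCR-ABL1 libraries above both EV libraries, with a median log2 fold change of 0.33. The family medians were 0.28 for Lsm, 0.25 for Sf3a and Sf3b, 0.15 for Prpf and 0.14 for Srsf genes. Srsf2 missed the threshold (log2 fold change 0.32 ± 0.09 (SE), adjusted p = 0.052), as did Sf3b3 (log2 fold change 0.29 ± 0.09 (SE), adjusted p = 0.0596) and Snrpd1 (log2 fold change 0.32 ± 0.10 (SE), adjusted p = 0.0645). A p that misses the threshold does not show that the levels were equal, and these genes had no overlap between the 2 conditions. Srsf1 and Sf3b1, by contrast, were at 0.03 ± 0.14 and 0.01 ± 0.10 (log2, SE) with overlapping libraries.

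**Figure D4:**
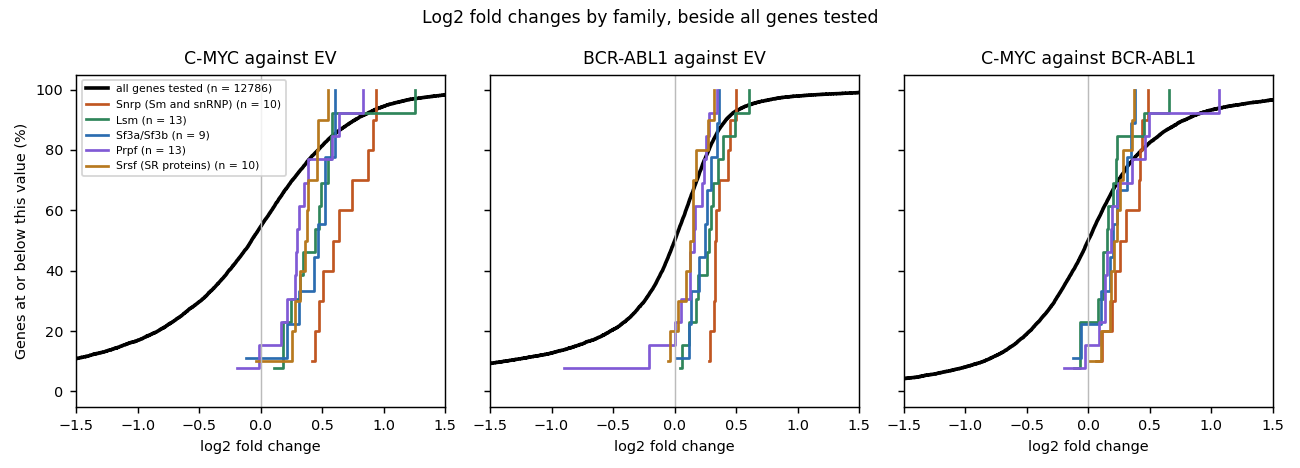
Cumulative share of genes (y axis, percent) at or below a log2 fold change (x axis) for all genes tested (black) and for the 5 families of core splicing factors, in the 3 comparisons. In C-MYC against EV the Snrp line starts at 0.42, to the right of the other families, and the medians are 0.61 for Snrp and -0.08 for all genes. The comparisons share libraries, so the panels are not independent.

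The oncogenes were also compared directly. Between C-MYC and BCR-ABL1, 8 of the 55 genes were called higher in C-MYC and 0 lower, where 11.5% of all genes tested were called higher and 11.9% lower, so the share of higher calls among the core splicing factors (14.5%) was near that of all genes. At an unadjusted p below 0.05, edgeR gave 15 higher and 0 lower. DESeq2 called 10 higher and 0 lower, beside 10.3% of all genes called higher by DESeq2. The median log2 fold change was 0.20, beside 0.00 for all genes, and both C-MYC libraries were above both BCR-ABL1 libraries in 36 genes, against 34.5% of all genes. The 8 called genes were Prpf19 (log2 fold change 0.49 ± 0.10 (SE), adjusted p = 0.0105), Snrpg (log2 fold change 0.48 ± 0.11 (SE), adjusted p = 0.0192), Prpf4 (log2 fold change 0.46 ± 0.12 (SE), adjusted p = 0.026), Snrpd3 (log2 fold change 0.44 ± 0.13 (SE), adjusted p = 0.0482), Snrpa1 (log2 fold change 0.42 ± 0.10 (SE), adjusted p = 0.0213), Snrpd2 (log2 fold change 0.41 ± 0.12 (SE), adjusted p = 0.0452), Sf3a3 (log2 fold change 0.35 ± 0.10 (SE), adjusted p = 0.0393) and Sf3b3 (log2 fold change 0.31 ± 0.09 (SE), adjusted p = 0.0397). These are 4 Snrp, 2 Sf3 and 2 Prpf genes, and 0 Lsm and 0 Srsf genes were called; at an adjusted p just above the threshold stood Snrpd1 (0.0596) and Lsm7 (0.0703). Most or all of these calls were lost when any 1 BCR-ABL1 or C-MYC library was left out, and a smaller share of all genes tested was then called. Without either EV library, more core splicing factors and a larger share of all genes were called. Over these fits the median log2 fold change ran from 0.18 without BCR-ABL1 replicate 1 to 0.22 without BCR-ABL1 replicate 2. Among markers, 3 of the 9 myeloid genes were called higher in C-MYC than in BCR-ABL1 and 8 of the 10 B cell precursor genes lower, and their part in the result was not tested.

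Levels of different genes were compared per kilobase of annotated exon, in CPM per kilobase. In EV, Srsf2 was the highest of all at 365, followed by Srsf5 at 277, Snrpb at 255, Srsf3 at 221 and Sf3b2 at 161. The lowest were Prpf40b at 0.852 and Lsm11 at 1.80, and the family medians were 103 for Srsf, 76.2 for Sf3a and Sf3b, 70.2 for Snrp, 31.4 for Lsm and 24.3 for Prpf genes. In C-MYC the same medians were 138, 108, 121, 49.4 and 29.9. The exon length counts every annotated exon of a gene, so a gene whose long isoforms are not used appears lower than it is. The deposited FPKM, made by the authors with StringTie, gave another order in EV, for reasons that were not tested. Sf3b3 was the highest with 567.5 and 587.7 FPKM. Next came Srsf6 with 376 and 403, Snrpb with 409 and 367, Srsf3 with 312 and 423 and Srsf2 with 314 and 325.

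Names that matched but fell below the minimum were Snrpf, Snrpn and Srsf12. Snrpf, the remaining protein of the Sm ring, had between 22 and 64 counts in each library, while its deposited FPKM were 52.7 and 68.1 with EV, 65.2 and 69.4 with BCR-ABL1 and 78.3 and 76.6 with C-MYC. Exons of other genes on the opposite strand cover 85.4% of its exon bases, and which of the 2 tables gives its level cannot be decided here. Snrpn, which is expressed in brain, had 0 counts in all 6 libraries. Its deposited FPKM were 0.0867 and 0.0630 with EV, 0.0194 in C-MYC replicate 1 and 0 elsewhere. Exons of other gene models, some on the same strand, cover 21.9% of its exon bases. Srsf12 had 2 counts in C-MYC replicate 1 and 0 elsewhere. A count of 0 allows up to 3 counts, for counting error only.

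Of 16 factors that assemble snRNPs, 11 were called higher in C-MYC than in EV and 0 lower, and their median was 0.74 on the log2 scale (18.6% and 24.5% over all genes tested). Of the same factors, 9 were called higher in C-MYC than in BCR-ABL1, where 11.5% of all genes were. Prmt5, which methylates Sm proteins before loading, had 137 and 138 CPM with EV, 168 and 164 with BCR-ABL1 and 292 and 235 with C-MYC (log2 fold change 0.94 ± 0.12 (SE), adjusted p = 0.00104 for C-MYC against EV). Gemin4 and Gemin5, parts of the SMN complex that places the Sm ring on the RNA, had log2 fold changes of 1.33 ± 0.12 and 1.31 ± 0.27. Gemin4 had 26.5 and 28.6 CPM with EV, 32.5 and 32.6 with BCR-ABL1 and 70.4 and 67.9 with C-MYC, so that BCR-ABL1 was close to EV while C-MYC stood far apart. Gemin5 had 42.8 and 77.3 CPM with EV, 52.8 and 75.5 with BCR-ABL1 and 145 and 152 with C-MYC, with EV replicate 1 well below EV replicate 2. Wdr77 and Clns1a, the partners of Prmt5, and Smn1, chosen after their values were seen, had log2 fold changes of 1.02 ± 0.12, 0.87 ± 0.10 and 0.75 ± 0.15. Against BCR-ABL1, Gemin4 was higher in C-MYC by 1.09 ± 0.12 (adjusted p = 0.00152) and Prmt5 by 0.67 ± 0.12 (adjusted p = 0.00861), of which Prmt5 lost the call without C-MYC replicate 1 or either BCR-ABL1 library. In BCR-ABL1 against EV, 2 of the 16 were called higher, Clns1a and Strap, and 0 lower. Over all genes tested, 5.08% were called higher and 12% lower in that comparison.

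**Figure D5:**
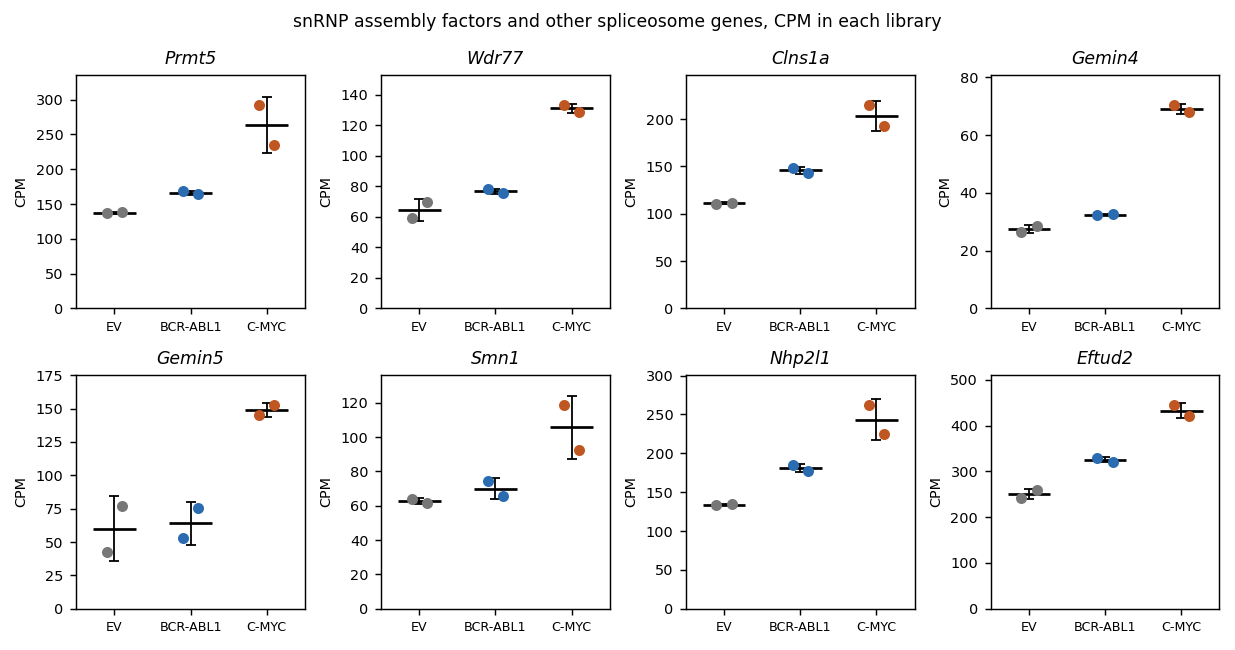
CPM in each library (points, replicate 1 left and replicate 2 right) of 6 snRNP assembly factors and of Nhp2l1 and Eftud2, with the mean (line) and SD (bars) of the 2 libraries of a condition. In all 8 genes both C-MYC libraries are the highest. For Gemin4 the EV and BCR-ABL1 libraries lie between 26.5 and 32.6 CPM and the C-MYC libraries at 67.9 and 70.4 CPM.

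Of 58 other spliceosome genes tested, 21 were called higher and 1 lower in C-MYC against EV, with a median log2 fold change of 0.25. Over all genes tested, 18.6% were called higher and 24.5% lower in this comparison. Nhp2l1, which binds the U4 snRNA, had 134 and 134 CPM with EV, 185 and 178 with BCR-ABL1 and 262 and 225 with C-MYC (log2 fold change 0.86 ± 0.11 (SE), adjusted p = 0.000917), and Eftud2, the GTPase of the U5 snRNP, had 242 and 259 CPM with EV, 329 and 321 with BCR-ABL1 and 444 and 421 with C-MYC (log2 fold change 0.79 ± 0.10 (SE), adjusted p = 0.00076). Both genes were ordered EV, BCR-ABL1, C-MYC without overlap. Slu7, a factor of the second step, was the one called lower (log2 fold change -0.35 ± 0.10 (SE), adjusted p = 0.0283), with 101 and 105 CPM with EV, 93.8 and 95.3 with BCR-ABL1 and 81.8 and 80.5 with C-MYC. Its call was lost without any one of the BCR-ABL1 or C-MYC libraries. Of 26 hnRNP and related genes, 12 were called higher and 0 lower, led by Syncrip (log2 fold change 0.85 ± 0.09 (SE), adjusted p = 0.000535) and Hnrnpab (log2 fold change 0.68 ± 0.09 (SE), adjusted p = 0.00111).

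Exon junction complex genes, whose proteins mark spliced mRNA, were called higher in 5 of 6 cases, with Magohb at 0.60 ± 0.17 and the helicase Eif4a3 at 0.60 ± 0.09, and the call of Magohb was lost without C-MYC replicate 1 or either BCR-ABL1 library. Of 16 kinases of SR proteins and their relatives, 3 were called higher and 2 lower, with a median of 0.00, where 18.6% of all genes tested were called higher and 24.5% lower. Srpk1, the main SR protein kinase, had 62.0 and 98.5 CPM with EV, 84.8 and 98.6 with BCR-ABL1 and 146 and 142 with C-MYC (log2 fold change 0.84 ± 0.20 (SE), adjusted p = 0.0128), and Tnpo3, which imports SR proteins into the nucleus, had a log2 fold change of 0.48 ± 0.10. The Srpk1 call was lost without either C-MYC library, and without EV replicate 2 its log2 fold change was 1.22, against 0.55 without EV replicate 1. Srpk3 was low everywhere and lower with either oncogene, with 5.47 and 4.47 CPM with EV, 1.56 and 1.95 with BCR-ABL1 and 1.56 and 1.48 with C-MYC (log2 fold change -1.70 ± 0.29 (SE), adjusted p = 0.00288), and Clk3 had 84.0 and 74.9 CPM with EV, 76.8 and 74.5 with BCR-ABL1 and 60.8 and 60.0 with C-MYC (log2 fold change -0.40 ± 0.12 (SE), adjusted p = 0.0264). The Clk3 call held in 1 of the 6 fits that each left out 1 library. In BCR-ABL1 against EV, 2 of the 58 other spliceosome genes and 2 of the 26 hnRNP genes were called higher, and 0 of the 16 SR protein kinases and relatives and 0 of the 6 exon junction genes, where 5.08% of all genes were; Srpk3 and Hnrnpll were called lower. In C-MYC against BCR-ABL1 the counts of higher calls in these 4 lists were 5, 4, 1 and 1, where 11.5% of all genes were called higher, and Ptbp3 was called lower. Hnrnpll and Ptbp3 are named because each was the single lower call of its list, after their values were seen.

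C-MYC binds the E-box, whose best-known form has the letters CACGTG, and promoter windows were therefore searched for it. The windows run from 250 bases before to 50 bases after the start of RefSeq transcripts on GRCm38.p6, and 46 of the 55 core splicing factors have at least 1. The E-box reads the same on both strands, so that 1 search covers both. It was found in 4 of the 46 genes (8.70%), Snrpa, Prpf3, Prpf39 and Prpf40b, against 11.7% of the 9714 tested genes with a window. Counted by window, 6 of the 56 windows of these genes (10.7%) held it, against 9.87% for tested genes and 7.15% of all 32851 windows, so the order of members and tested genes depends on the counting. Of these 4 genes, Snrpa and Prpf3 were called higher in C-MYC than in EV. For Snrpa the first base of the motif lies at -73 and -32 from the start, and for Prpf39 at -43. The 100 bases before the start are shown for these 2 genes and for the 3 genes with the largest log2 fold changes in C-MYC against EV, 5′ to 3′ on the strand of the gene, with the E-box in capitals.
Snrpa: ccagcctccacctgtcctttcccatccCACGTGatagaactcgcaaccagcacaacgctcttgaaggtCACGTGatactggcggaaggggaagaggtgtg
Prpf39: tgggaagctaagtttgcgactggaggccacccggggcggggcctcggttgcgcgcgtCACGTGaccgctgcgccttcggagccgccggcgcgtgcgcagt
Snrpd3: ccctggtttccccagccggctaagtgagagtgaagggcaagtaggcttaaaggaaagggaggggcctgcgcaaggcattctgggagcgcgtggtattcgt
Snrpg: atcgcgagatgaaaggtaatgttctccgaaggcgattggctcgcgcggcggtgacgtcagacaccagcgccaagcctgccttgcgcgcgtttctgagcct
Lsm7: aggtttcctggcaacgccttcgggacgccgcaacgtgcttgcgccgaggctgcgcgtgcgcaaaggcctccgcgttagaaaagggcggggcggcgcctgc
Snrpa lies on the minus strand (chr7:27196272-27196371) and Prpf39 on the plus strand (chr12:65036234-65036333). Snrpd3 (chr10:75517942-75518041, plus strand), Snrpg (chr6:86371440-86371539, plus strand) and Lsm7 (chr10:80855210-80855309, minus strand) hold no CACGTG in their whole windows. A match is a description of letters and no match says nothing of the binding of C-MYC, which was not measured here.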

How the data were processed

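RNA-seq of B cell precursors was available for 2 libraries each of EV, BCR-ABL1 and C-MYC, and groups and replicates follow the labels. The authors aligned reads of poly(A) RNA to GRCm38/mm10 with STAR 2.5.0, supplemented with UCSC known genes, and the authors deposited unnormalized counts as whole numbers for each gene symbol. The deposited FPKM values were made by the authors with StringTie 1.3.0. The program that counted reads and its handling of strand are not given in the sources used here. ChIP-seq libraries were not used here.

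All 6 libraries were fitted in 1 model without a covariate in edgeR 4.0.16 (R 4.3.3): filterByExpr with the condition as group, TMM scaling, the quasi-likelihood test, and Benjamini-Hochberg adjustment over all genes tested. The model left 3 residual degrees of freedom, with a common biological coefficient of variation of 0.151. SEs were obtained from each log2 fold change and its F statistic (size over root F). The fit was tested on simulated data. CPM are TMM-normalized, and exon lengths and gene positions come from the GENCODE annotation of GRCm38. Promoter windows are those of RefSeq (GRCm38.p6).

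Alternatives were DESeq2 1.42.0, its size factors, no filter, a fit of the 4 libraries compared, a term for the replicate number, limma 3.58.1 on log2 of FPKM plus 1 or plus 0.1, a minimum of 10 counts, other members, and leaving out each library. The fit left out no library otherwise. Genes given with full values were, in each family, the 4 with the largest difference between C-MYC and EV among those called and the 1 with the smallest, those called in BCR-ABL1 against EV, and Sf3b1, Srsf1, Srsf2, Srsf3, Snrpb, Snrpn, Snrpd1, Snrpd3 and Prpf8; from each list of further splicing genes, the 2 largest called in each direction, and Prmt5. Values of 1 Prpf gene are not reported here, although the counts include it. Other genes are named to account for the families or as the text says. The members, the gene lists and the tests were chosen with earlier results of these data known. Figures were drawn with matplotlib 3.10.9 in Python 3.11.15.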

Additional observations from a re-analysis of the deposited data

How the results depend on the processing

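Higher calls between C-MYC and EV numbered 30, and 18 with limma on log2 FPKM at either pseudocount, and 19 to 35 when 1 library was left out. The median log2 fold change of 0.43 was 0.30 and 0.31 on FPKM with a pseudocount of 1 and 0.1. Higher calls between BCR-ABL1 and EV numbered 5, and 10 with DESeq2, 1 in the fit of 4 libraries, 2 and 3 on FPKM, and 0 to 6 without 1 library (0 to 1 lower), and the median of 0.25 was 0.15 and 0.15 on FPKM. Higher calls between C-MYC and BCR-ABL1 numbered 8 (11.5% of all genes tested). They numbered 14 in the fit of 4 libraries (18.7%), and 4 and 4 on FPKM (7.43% and 8.32%). This count also changed without 1 library, where the median ran from 0.18 to 0.22. The median of 0.20 was 0.14 and 0.15 on FPKM. With the replicate number as a block, the pairing gave 41, 12 and 13 higher calls in these comparisons. Over all genes tested, 22.8%, 9.55% and 16.5% were then called higher. Deviations of same-numbered libraries from the condition means correlated across genes by 0.33, 0.28 and 0.28, but the sources name duplicate experiments without saying that a number marks a shared one, and 2 numbers are too few to decide a pairing. Lsm2 and Lsm14a reversed on FPKM in C-MYC against EV, to -0.0631 and -0.0188 with a pseudocount of 1 and to -0.0637 and -0.0189 with 0.1. The causes were not tested. In all the other settings these counts stayed within 1.5 times and the medians within the replicate spread, and 0 members were called lower except Prpf40b, in BCR-ABL1 against EV without EV replicate 1. Of the checks on single named genes in C-MYC against EV, 468 kept direction and call, 50 lost a call and 11 gained one; 75 kept both and 55 lost a call in BCR-ABL1 against EV, and 145 and 76 did so in C-MYC against BCR-ABL1. FPKM per count differed widely between genes: for Sf3b6 the ratio was 0.0914 of the median gene of the families. Whether the number of libraries or their depth limits these results more was not tested.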
